A study of Mus musculus with 10 samples.

Results

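The Hox genes of the A, B, C and D clusters were described in mRNA from mouse tumours, as the rows of the deposited expression table whose gene name holds a symbol of the form Hox, a cluster letter and a paralogue number. The rule found 36 of the 27968 rows, which carry all 39 symbols found, 11 in Hoxa, 10 in Hoxb, 9 in Hoxc and 9 in Hoxd. Of these rows 5 join neighbouring genes, 12 genes in all, whose values cannot be told apart, and each joined row was counted once. Another 4 rows repeat the symbol and the locus of a more abundant row, and the table has no strand column to say which transcripts each covers.

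The tumours grew under the skin of immune-compromised mice from C57BL/6 embryonic fibroblasts (MEFs) driven by RAS/DNP53, that is RAS, given as G12V in the title of the deposited sheet, together with a dominant-negative p53. In 3 tumours, from the 2 cell lines numbered 12 and 14, cyclin D1 carried a tag, and in 2 tumours, from the lines numbered 18 and 25, it did not. Tagged tumours 2 and 3 both came from line 14. Every animal received the same HA-siRNA by the rectal route, 5 doses a day once a tumour had reached 500 mm3, and was killed 30 minutes after the last of them, so no group was untreated. The labels give no ages. The table holds 1 value for a condition C2 and 1 for a condition C1 and nothing that assigns either to the tagged tumours, so every comparison below is C2 against C1 and says nothing about the tag. All FPKM values are levels from the authors' deposited table, scaled per transcript length and per mapped fragments. Levels of different genes may thus be set side by side, except for very short rows. There are no values per tumour, hence no SD and no n, and library depth is unknown. The sources used here do not say which tumours or lanes were replicates for Cuffdiff, the program behind the deposited p and q.

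Hox genes encode homeodomain transcription factors that give cells their position along the body axis and along the limb. They lie in clusters in which genes of low paralogue number are used in anterior and those of high number in posterior or distal regions, and adult fibroblasts keep a Hox pattern that reflects the site they came from. Genes of the same paralogue number in different clusters are sister copies with similar homeoboxes.

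The homeobox is the stretch of 180 bases that encodes the DNA-binding homeodomain, and it is printed for 4 of the single-gene rows that were called, to show how far their coding sequences differ. The letters are those of GENCODE M21 transcripts (GRCm38), coding strand, 5′ to 3′, with the 18 bases that encode the conserved tryptophan-phenylalanine-glutamine-asparagine-arginine-arginine stretch of the recognition helix in capitals.
Hoxb2: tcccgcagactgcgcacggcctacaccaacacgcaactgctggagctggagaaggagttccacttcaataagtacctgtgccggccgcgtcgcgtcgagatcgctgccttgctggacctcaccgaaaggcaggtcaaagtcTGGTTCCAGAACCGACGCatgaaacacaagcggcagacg
Hoxb8: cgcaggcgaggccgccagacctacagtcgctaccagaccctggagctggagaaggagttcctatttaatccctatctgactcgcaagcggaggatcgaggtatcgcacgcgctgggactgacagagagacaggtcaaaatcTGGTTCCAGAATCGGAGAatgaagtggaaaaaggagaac
Hoxb9: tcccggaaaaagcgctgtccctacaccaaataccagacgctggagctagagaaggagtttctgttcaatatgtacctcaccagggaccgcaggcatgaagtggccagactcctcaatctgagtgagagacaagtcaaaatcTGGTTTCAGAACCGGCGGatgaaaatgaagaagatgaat
Hoxc10: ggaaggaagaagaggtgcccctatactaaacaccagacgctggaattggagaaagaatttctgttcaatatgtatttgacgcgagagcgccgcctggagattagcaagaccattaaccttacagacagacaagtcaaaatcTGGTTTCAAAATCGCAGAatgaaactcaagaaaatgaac

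The 4 homeoboxes were 57.8% to 71.1% identical to each other over the 6 pairs. The closest of all Hox genes to Hoxb9 was Hoxd9 (84.4%), to Hoxc10 Hoxd10 (82.8%) and to Hoxb2 Hoxd3 (77.8%). Hoxb6, Hoxb7 and Hoxd8 were equally close to Hoxb8 (80.6%). The called genes Hoxb3 and Hoxb4 were not printed. Hoxb4 was closest to Hoxa4 (82.8%), and Hoxb3 with Hoxa3 was the closest pair of all Hox genes (93.9%). Over all Hox genes the median identity was 80.6% for the 42 pairs of the same paralogue number and 60.6% for the 699 pairs of different number. Reads were 100 bases long, and no stretch of 100 bases was found exactly in transcripts of Hox genes of different clusters (0 pairs). Within clusters 2 pairs shared such stretches, Hoxd3 with Hoxd4, which stand in 1 joined row, and Hoxc10 with Hoxc5, which shared 69 of the 1810 stretches of Hoxc10 (3.81%). No Hoxb transcript shared any (0). Stretches that differ by a few bases were not searched, so whether reads could be shared between genes was not tested.

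The data showed the Hoxb genes higher in C2, Hoxc10 lower, and no other Hox row past the threshold. Among the 31 Hox rows with a valid test, 7 were called at q under 0.05 in the authors' deposited table, beside 7.12% of all 16681 tested rows. The rows called higher in C2 numbered 6 (19.4% of the tested Hox rows, beside 4.2% of all tested rows) and all belong to Hoxb. The row called lower was 1 (3.23%, beside 2.92%). The median log2 ratio of C2 to C1 was 0.60 over the tested Hox rows and 0.05 over all tested rows. The Hox median was 0.28 with a pseudocount of 1 FPKM and 0.33 without joined rows. The Hox median pools separate ranges of values. The ratios lay from 1.77 to 2.95 in Hoxb and from -2.37 to 1.10 in the other clusters, where the median was -0.44. In such tissue RNA, fewer cells of a type and less RNA per cell cannot be told apart.

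**Figure D1:**
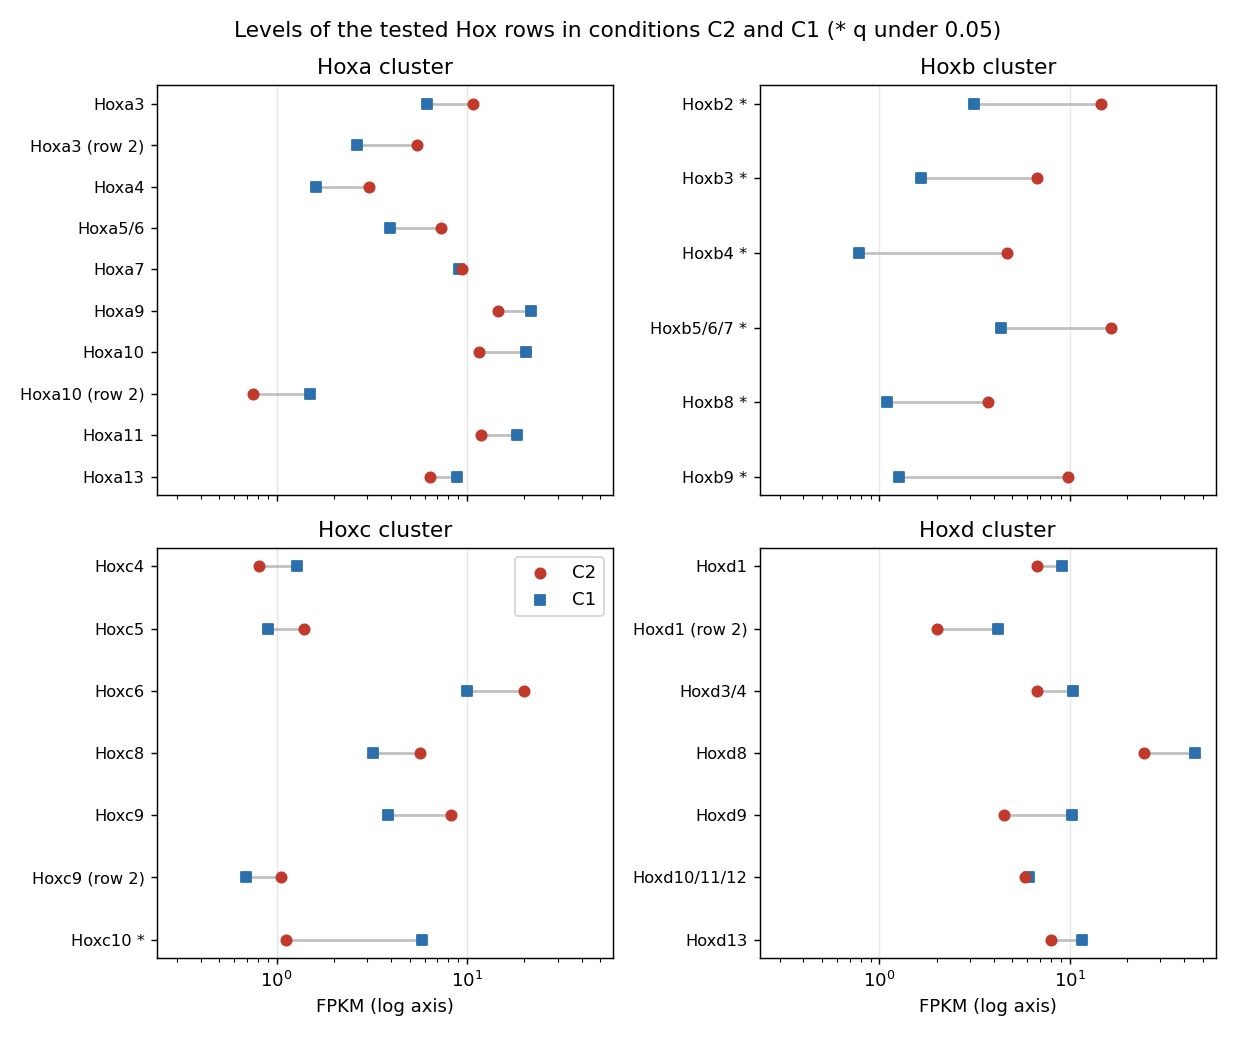
FPKM (log axis) of the tested Hox rows, 1 Hoxa row left out, in C2 (circles) and C1 (squares), by cluster and paralogue number, with no error bars since there is 1 value per condition; joined genes share a row, and "row 2" is a second row of the same symbol. All 6 Hoxb rows sit between 3.72 and 16.5 FPKM in C2, against 0.778 to 4.37 FPKM in C1, while every Hoxd row has the lower value in C2.

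Hoxb9, which patterns the thoracic ribs together with its sister genes, had the largest ratio of any tested Hox row (XLOC_003488, chromosome 11, 96112526 to 96138129, MGSCv37). It stood at 9.83 FPKM in C2, against 1.27 FPKM in C1. The 7.72-fold rise is 2.95 on the log2 scale (p = 5e-05, q = 0.0016681 in the authors' deposited table). That p is the smallest value that any Hox row carried, and Hoxb2, Hoxb3, Hoxb4 and Hoxc10 carried it too.

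Hoxb4, known for expanding blood stem cells when overexpressed, stood at 4.71 FPKM in C2 and 0.778 FPKM in C1 (XLOC_003493, chromosome 11, 96179580 to 96182952). It rose 6.05-fold (log2 ratio 2.60, q = 0.0016681 in the authors' deposited table). Hoxb2, which acts in the hindbrain, had 14.6 FPKM in C2, against 3.14 FPKM in C1 (XLOC_003495, chromosome 11, 96212945 to 96215328). Its rise was 4.66-fold (log2 ratio 2.22, q = 0.0016681 in the authors' deposited table). Hoxb3, active in the hindbrain and pharyngeal arches, had 6.76 FPKM in C2 and 1.65 FPKM in C1 (XLOC_003494, chromosome 11, 96184439 to 96209357). It rose 4.09-fold (log2 ratio 2.03, q = 0.0016681 in the authors' deposited table).

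The joined row of Hoxb5, Hoxb6 and Hoxb7 was the most abundant of the cluster (XLOC_003491, chromosome 11, 96147123 to 96167435). It held 16.5 FPKM in C2 and 4.37 FPKM in C1, a 3.77-fold rise (log2 ratio 1.91) with p = 0.00095 and q = 0.0181731 in the authors' deposited table. Hoxb8, which blocks differentiation of myeloid progenitors when overexpressed, had the smallest ratio of the cluster (XLOC_003490, chromosome 11, 96143175 to 96146639). Its level was 3.72 FPKM in C2 and 1.09 FPKM in C1, a 3.40-fold rise (log2 ratio 1.77) with p = 0.0005 and q = 0.0113786 in the authors' deposited table. At q under 0.01 these 2 rows were no longer called, which left 4 Hoxb rows. The ends of the cluster were silent or nearly so: Hoxb1 was listed at 0 in C2 and in C1, and Hoxb13 at 0.00823 FPKM in C2 and at 0 in C1, and neither was tested. The difference therefore ran over every Hoxb row that was tested, from paralogue 2 to paralogue 9.

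RefSeq promoters (build GRCm38.p6, which is not the build of the expression table) were available for 22 of the 39 Hox genes, among them Hoxb4 and Hoxb8 of the called rows. The 250 bases before the start of each are printed 5′ to 3′, Hoxb4 from chr11:96318017-96318266 and Hoxb8 from chr11:96281655-96281904, plus strand. Motif matches on either strand are in capitals. The motifs are the TATA box (TATAAA), the CAAT box (CCAAT), a promoter element, and a site bound by Hox proteins with Pbx partners (TGATNNAT).
Hoxb4: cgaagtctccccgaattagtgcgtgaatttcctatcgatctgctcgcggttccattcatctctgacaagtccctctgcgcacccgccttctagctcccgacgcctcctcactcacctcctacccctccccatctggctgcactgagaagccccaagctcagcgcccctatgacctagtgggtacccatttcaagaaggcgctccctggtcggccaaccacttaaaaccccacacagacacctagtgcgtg
Hoxb8: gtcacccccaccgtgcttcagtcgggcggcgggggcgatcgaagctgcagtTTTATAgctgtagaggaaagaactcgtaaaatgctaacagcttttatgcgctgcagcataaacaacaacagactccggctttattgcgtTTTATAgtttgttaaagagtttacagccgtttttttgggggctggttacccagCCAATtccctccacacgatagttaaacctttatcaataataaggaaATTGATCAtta

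None of these 3 motifs was found in the Hoxb4 window (0), while the Hoxb8 window held 2 matches to TATAAA, 1 to CCAAT and 1 to TGATNNAT, none of which overlap. Both TATAAA matches lie on the opposite strand (TTTATA), and whether either acts as a TATA box was not tested. Among 24 Hox windows of that length 16.7% held TATAAA, 58.3% CCAAT and 16.7% TGATNNAT, and the shares among all 32851 RefSeq promoter windows were 12.4%, 33.8% and 7.68%. The G and C content was 58.0% for Hoxb4 and 44.4% for Hoxb8, beside a median of 58.6% over Hox windows and 52.4% over all.

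Hoxa had values on either side of 1-fold, split by position in the cluster, and no row was called by Cuffdiff (0 of 11, with 1 at an unadjusted p under 0.05). Among all tested rows 7.12% were called and 17.1% had such a p. The anterior and central rows, through Hoxa7, had the higher value in C2, and the 5 rows of Hoxa9 to Hoxa13 the lower one. The 2 rows of Hoxa3, needed for the thymus and parathyroid, were at 10.7 and 5.50 FPKM in C2, against 6.13 and 2.63 FPKM in C1. Hoxa4 was at 3.05 FPKM in C2 and 1.61 FPKM in C1, and the joined row of Hoxa5, which acts in lung development, and Hoxa6 at 7.33 FPKM in C2 and 3.95 FPKM in C1. These 4 rows differed by 1.75-fold to 2.09-fold, yet their q lay between 0.630 and 0.862 in the authors' deposited table. The table gives all 4 of them the same locus, chromosome 6 from 52105365 to 52163596.

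Hoxa7, in the middle of the cluster, was nearly level, at 9.45 FPKM in C2 and 9.11 FPKM in C1. Its log2 ratio of 0.05 became -0.0033 when all ratios were re-centred on the median of tested rows with at least 1 FPKM (0.06). The most abundant Hoxa row over both conditions was Hoxa9, a leukaemia-associated posterior gene (XLOC_020734, chromosome 6, 52173097 to 52177422), at 14.6 FPKM in C2 and 21.6 FPKM in C1. Its log2 ratio was -0.56 (p = 0.1176 and q = 0.468 in the authors' deposited table). Hoxa10, which acts in the uterus and the limb, had 11.5 FPKM in C2 and 20.5 FPKM in C1 in its abundant row, or -0.83 as a log2 ratio (p = 0.03075, q = 0.219 in the authors' deposited table). Its second row stood at 0.751 FPKM in C2 and 1.49 FPKM in C1. Hoxa11, a gene of the forearm and lower leg, was at 11.9 FPKM in C2 and 18.4 FPKM in C1, and its antisense RNA Hoxa11as, listed at the same locus, at 14.5 FPKM in C2 and 21.1 FPKM in C1 (q = 0.617 in the authors' deposited table). Whether reads were counted by strand is not stated, so this pair may share reads. Hoxa13, a gene of the hand and foot, was at 6.38 FPKM in C2 and 8.82 FPKM in C1.

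**Figure D2:**
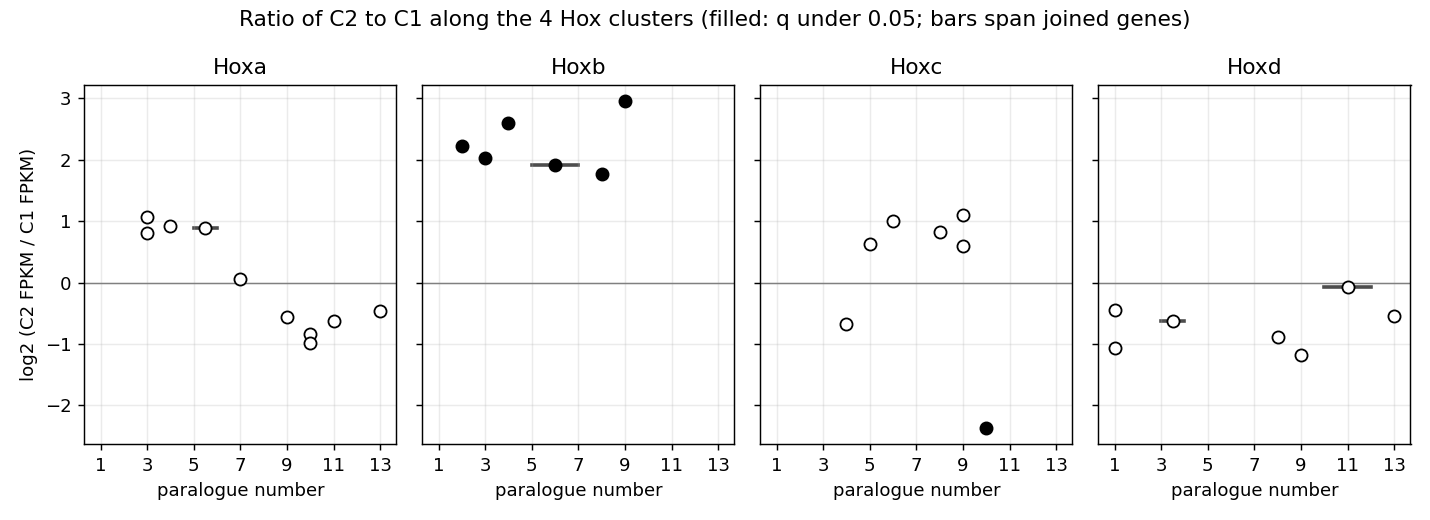
Log2 ratio of C2 to C1 FPKM (vertical axis) against paralogue number (horizontal axis) for the tested rows of the 4 clusters, 1 Hoxa row left out; filled points have q under 0.05, and horizontal bars span the genes of a joined row. The tested Hoxb rows, from Hoxb2 to Hoxb9, lie between 1.77 and 2.95. Hoxa goes below 0 after Hoxa7, Hoxc10 stands at -2.37 and Hoxd lies below 0 throughout.

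Hoxc held the only Hox row called lower. Hoxc10, a gene of the lumbar spinal cord and the hindlimb (XLOC_008295, chromosome 15, 102797226 to 102802328), stood at 1.12 FPKM in C2, against 5.78 FPKM in C1. It fell by 2.37 on the log2 scale (p = 5e-05 and q = 0.0016681 in the authors' deposited table), so that the C1 value was 5.15 times that of C2. Its neighbour Hoxc11 was near 0, at 0.0275 FPKM in C2 and 0.193 FPKM in C1, which is the highest value of any untested Hox row. Hoxc13 was at 0.0118 FPKM in C2 and 0.0407 FPKM in C1, and Hoxc12 was listed at 0 in both conditions. None of these was tested by Cuffdiff.

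On the other side of Hoxc10, the rows from Hoxc9 to Hoxc5 had the higher value in C2, and none was called. Hoxc6, the most abundant of the cluster (XLOC_008299, chromosome 15, 102831202 to 102842403), was at 20.0 FPKM in C2 and 10.02 FPKM in C1, or 1.00 as a log2 ratio (p = 0.0317, q = 0.223 in the authors' deposited table). Hoxc9, which sets thoracic identity in motor neurons, had 8.25 FPKM in C2 and 3.86 FPKM in C1 in its abundant row and 1.05 FPKM in C2 and 0.693 FPKM in C1 in its second row. Hoxc8, a gene of the brachial and thoracic levels, was at 5.64 FPKM in C2 and 3.20 FPKM in C1, and Hoxc5 at 1.40 FPKM in C2 and 0.900 FPKM in C1. Hoxc4 had the opposite order, 0.810 FPKM in C2 and 1.29 FPKM in C1 (q = 0.652 in the authors' deposited table). Adjacent rows of the cluster thus stood on opposite sides, with log2 ratios of 1.10 for Hoxc9 and -2.37 for Hoxc10.

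All 7 Hoxd rows had the lower value in C2, and none was called by Cuffdiff (0, with 3 at an unadjusted p under 0.05). Among all tested rows 7.12% were called, 17.1% had such a p and 54.4% had the higher value in C2. Hoxd8 was the most abundant Hox row of all (XLOC_013189, chromosome 2, 74542321 to 74546149), at 24.6 FPKM in C2 and 45.4 FPKM in C1. Its log2 ratio was -0.89, with p = 0.0051 and q = 0.0643 in the authors' deposited table, the smallest q of any Hox row that was not called. Hoxd9 followed, at 4.55 FPKM in C2 and 10.3 FPKM in C1 (log2 ratio -1.18, p = 0.00695 and q = 0.0806 in the authors' deposited table). The joined row of Hoxd3 and Hoxd4 was at 6.76 FPKM in C2 and 10.4 FPKM in C1 (q = 0.264 in the authors' deposited table).

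The ratio nearest to level lay at the distal end of the cluster. The joined row of Hoxd10, Hoxd11 and Hoxd12, genes of the limb, was at 5.85 FPKM in C2 and 6.13 FPKM in C1, a log2 ratio of -0.07. Hoxd13, whose loss or expansion alters the digits, was at 7.96 FPKM in C2 and 11.6 FPKM in C1 (log2 ratio -0.54). The 2 rows of Hoxd1 stood at 6.74 and 2.01 FPKM in C2, against 9.13 and 4.21 FPKM in C1. At an unadjusted p under 0.05 there were 12 Hox rows in all, beside 17.1% of all tested rows, and the 5 of them that were not called after adjustment were the abundant row of Hoxa10, Hoxc6, the joined row of Hoxd3 and Hoxd4, Hoxd8 and Hoxd9.

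By paralogue class, pooled over clusters, 5 of 7 tested anterior rows (paralogues 1 to 3) and 9 of 11 central rows (4 to 8) had the higher value in C2, against 3 of 12 posterior rows (9 to 13). The joined row of Hoxd3 and Hoxd4, which spans the anterior and central classes and had the lower value in C2, is in none of these counts. The medians of the log2 ratio were 1.06, 0.89 and -0.55. Of all tested rows in the experiment 54.4% had the higher value in C2. The posterior rows with the higher value were Hoxb9 and the 2 rows of Hoxc9. The other anterior and central rows with the lower value were the 2 rows of Hoxd1, Hoxd8 and Hoxc4. Rows of a cluster are neighbours on 1 chromosome and are not replicates, so these counts are descriptions.

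The sum of FPKM over all Hox rows was nearly the same, 238 in C2 and 231 in C1, while its division among the clusters was not. Hoxb made up 56.1 FPKM in C2, against 12.3 FPKM in C1, which is 23.6% of the Hox sum in C2 and 5.32% in C1. Hoxd made up 58.4 FPKM in C2, against 97.2 FPKM in C1, or 24.6% in C2 and 42.0% in C1. Hoxa contributed 84.7 FPKM in C2 and 95.9 FPKM in C1, and Hoxc 38.3 FPKM in C2 and 26.0 FPKM in C1. Without the 4 rows that repeat a symbol, the share of Hoxb was 24.6% in C2 and 5.53% in C1.

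**Figure D3:**
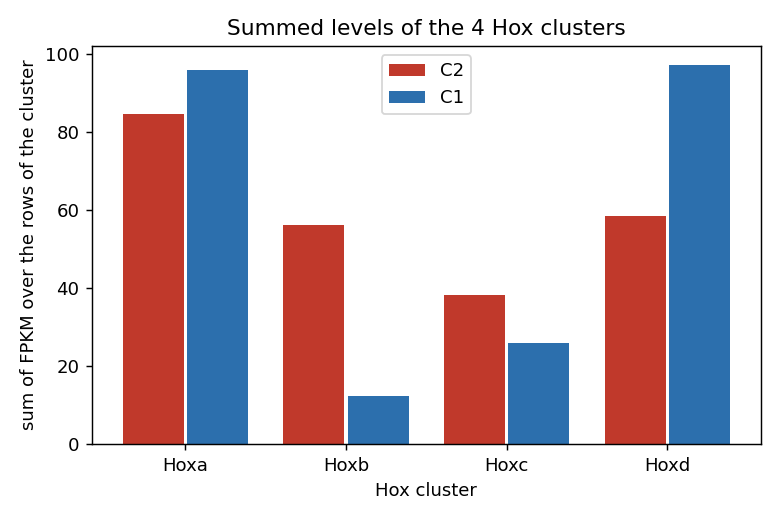
Sum of FPKM over the rows of each Hox cluster in C2 (left bar) and C1 (right bar), with no error bars since there is 1 value per condition. Hoxb stands at 56.1 in C2, against 12.3 in C1, and Hoxd at 58.4 in C2, against 97.2 in C1.

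Rows without a gene name lay inside all 4 cluster intervals, 20 in number. Of the 14 that were tested, 1 was called, XLOC_004789 in the locus of the joined row of Hoxb5, Hoxb6 and Hoxb7, at 3.96 FPKM in C2 and 0.792 FPKM in C1 (5.00-fold higher, q = 0.0167401 in the authors' deposited table). A count of 1 in 14 is close to the 7.12% called among all tested rows. At that locus 2 more unnamed rows had the higher value in C2 without being called. They were XLOC_004787, at 12.6 FPKM in C2 and 3.93 FPKM in C1, and XLOC_004788, at 2.86 FPKM in C2 and 0.393 FPKM in C1. All 5 unnamed rows of the Hoxc interval, which lie at or beside Hoxc6, had the higher value in C2, with log2 ratios of 1.23 to 1.92 and none called. Unnamed rows can overlap the named gene at the same locus, so they do not count as separate observations of it. The long noncoding RNA Hotair of the Hoxc cluster was listed at 0 in C2 and at 0.0599 FPKM in C1 and was not tested. Hairpin rows of 5 microRNAs that lie in the clusters (Mir10a, Mir196a-1, Mir196a-2, Mir196b and Mir615) were listed at 0 in both conditions. The libraries were made with an mRNA kit, which is not meant for microRNAs, so these values do not show their absence.

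Hox proteins bind DNA together with the TALE homeodomain cofactors of the Pbx, Meis and Pknox families. None of the 8 tested cofactors was called by Cuffdiff (0, with 1 at an unadjusted p under 0.05), and the median log2 ratio was -0.18. Among all tested rows 7.12% were called and 17.1% had an unadjusted p under 0.05. Counts this small therefore say nothing particular of the cofactors. Pbx3, with the highest value of any cofactor in a single condition, was at 16.3 FPKM in C2 and 25.5 FPKM in C1 (q = 0.245 in the authors' deposited table). Meis2 was level, at 4.37 FPKM in C2 and 4.37 FPKM in C1.

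Polycomb proteins keep Hox clusters silent where they are not used, and trithorax proteins keep them active. Of 22 Polycomb genes 1 was called, the histone H3 lysine methyltransferase Ezh2, which had 32.4 FPKM in C2 and 15.1 FPKM in C1 (2.15-fold higher, q = 0.0174569 in the authors' deposited table). That count is no larger a share than the 7.12% called among all tested rows, so it says nothing particular of the list. The median log2 ratio of the Polycomb genes was 0.26. None of 15 trithorax and demethylase genes was called by Cuffdiff (0, with 1 at an unadjusted p under 0.05), with a median of 0.15. The most abundant of them, Psip1, stood at 50.1 FPKM in C2 and 66.2 FPKM in C1 (q = 0.524 in the authors' deposited table).

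Among 13 tested regulators upstream of the clusters, 2 were called, both lower in C2, beside 2.92% of all tested rows, and both handle retinoic acid, a classical inducer of Hox genes. Cyp26b1, which degrades retinoic acid, fell to 2.60 FPKM in C2, against 11.4 FPKM in C1 (log2 ratio -2.13, q = 0.0016681 in the authors' deposited table). Crabp2, which carries retinoic acid to its receptor, fell to 233 FPKM in C2, against 659 FPKM in C1 (log2 ratio -1.50, q = 0.0016681 in the authors' deposited table). The receptor Rarg was level, at 79.5 FPKM in C2 and 79.6 FPKM in C1. So was Crabp1, the most abundant member of the list, at 2270 FPKM in C2 and 2133 FPKM in C1. Rara, Rxra and Aldh1a2, further retinoic acid genes of the list, were tested and not called. Cdx2, a caudal-type activator of Hox genes, was at 7.87 FPKM in C2 and 0.103 FPKM in C1, the largest ratio in this list (76.5-fold), yet it was not called (p = 0.17765 and q = 0.568 in the authors' deposited table). Adding 1 FPKM to each value made its log2 ratio 3.01, against 6.26 without. Cdx2 was chosen for mention after its values were seen.

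Genes that flank the clusters had log2 ratios of -0.28 to 0.90. None of the 14 that were tested was called by Cuffdiff (0, with 3 at an unadjusted p under 0.05), and the median log2 ratio was 0.19. With 7.12% of all tested rows called and 17.1% at such a p, these counts say nothing particular of the flanking genes. Beside Hoxb, Cbx1 was at 39.0 FPKM in C2 and 27.8 FPKM in C1, and Snx11 at 9.94 FPKM in C2 and 10.2 FPKM in C1. Beside Hoxd, Mtx2 was at 80.4 FPKM in C2 and 93.1 FPKM in C1. The most abundant flanking gene, Atp5g3, was at 475.5 FPKM in C2 and 423 FPKM in C1 (q = 0.851 in the authors' deposited table).

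**Figure D4:**
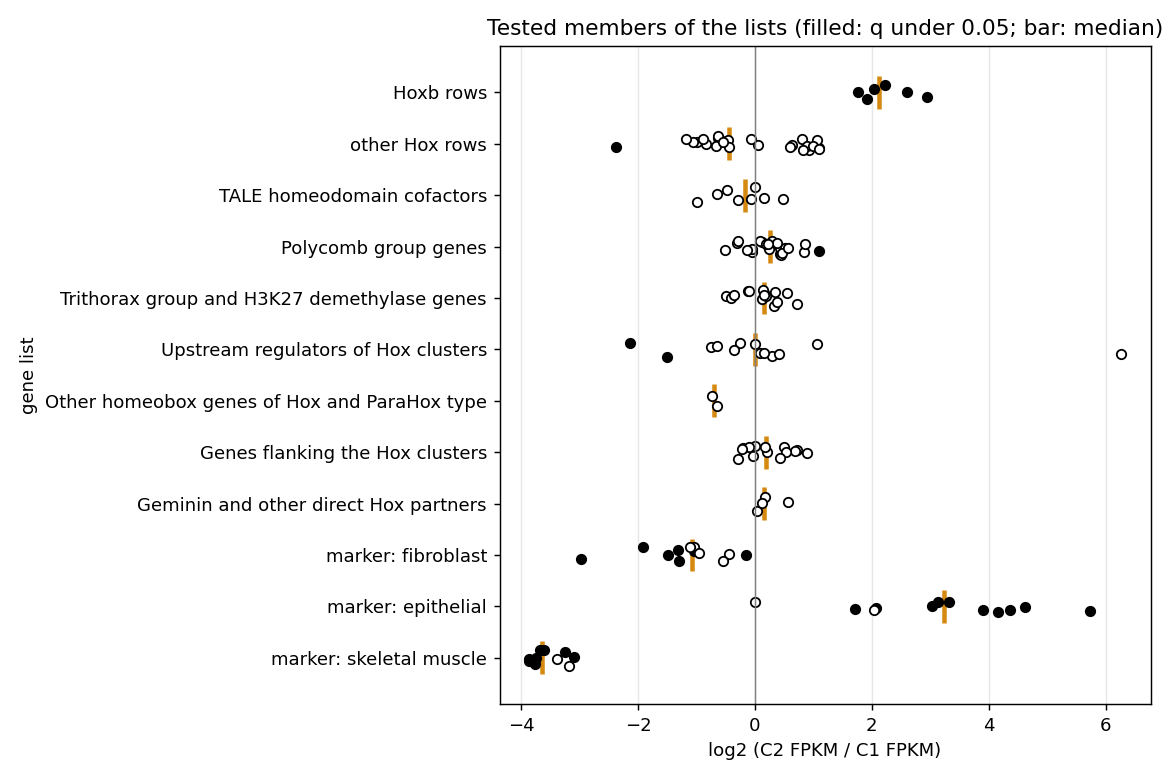
Log2 ratio of C2 to C1 FPKM for each tested member of the gene lists (horizontal axis), one list per line; filled points have q under 0.05, bars mark medians, and the vertical scatter within a line carries no value. All 6 Hoxb rows are filled and lie at 1.77 or above, whereas the cofactor, Polycomb, trithorax and flanking lists have medians between -0.18 and 0.26. The marker lists drawn here lie further from 0 than those lists. Their medians are 3.23 for epithelial, -1.07 for fibroblast and -3.64 for skeletal muscle markers. The Hoxb median is 2.13.

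Markers of several cell types moved with the conditions, among them those of fibroblasts, the cells from which the tumours grew. Their counts stand beside 4.2% of all tested rows called higher and 2.92% called lower. Of 12 epithelial markers 10 were called higher, with a median log2 ratio of 3.23. Their summed level was 1168 FPKM in C2 and 644 FPKM in C1. Krt18, level and not called, held 514 FPKM in C2 and 516 FPKM in C1 of these sums. Of 12 fibroblast markers 7 were called lower, with 6522 FPKM in C2 and 13898 FPKM in C1, and the mesenchymal filament gene Vim was abundant in both (2027 FPKM in C2 and 2970 FPKM in C1). Of 11 skeletal muscle rows, of which 10 were tested, 8 were called lower, with 116 FPKM in C2 and 1384 FPKM in C1. Lymphocyte markers summed to 1.23 FPKM in C2 and 8.60 FPKM in C1 (3 of 4 tested called lower), keratinocyte markers to 44.0 FPKM in C2 and 114 FPKM in C1 (2 of 5 called lower), and endothelial markers to 93.8 FPKM in C2 and 84.9 FPKM in C1 (1 called higher and 1 lower, of 6). Of 5 macrophage markers none was called by Cuffdiff (0, and 0 at an unadjusted p under 0.05), with 106 FPKM in C2 and 103 FPKM in C1. No marker of these lists was listed at 0. The part of these markers' cell types in the Hox differences was not tested.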

How the data were processed

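Libraries of 5 tumours, each run on 2 lanes, were grouped by their titles, and the labels name a stranded mRNA kit. Reads were mapped to MGSCv37 with Bowtie and TopHat and quantified with Cufflinks, per the series' design text, and versions are given in the submitters' processing notes (Cufflinks 2.1.1; TopHat2 2.0.8b; CASAVA 1.8.2). The authors deposited a table in the layout of Cuffdiff with 1 value per condition, and its unit is read as FPKM from that layout since the header names none. The p-value and q-value of each row were deposited by the authors, and a Benjamini-Hochberg adjustment of these p over all tested rows gave these q within 5.17e-07. With no values per tumour, no test was refitted, and the depth is unknown.

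Ratios were computed here as log2 of C2 over C1 without a pseudocount, and a row was called at q under 0.05. Paralogues 1 to 3, 4 to 8 and 9 to 13 were called anterior, central and posterior. Values are given for Hox rows with at least 1 FPKM in a condition, and from other lists for up to 4 called genes by size of the log2 ratio, or else the most abundant gene; further genes of those lists were named after their values were seen. A few members and sequences are not reported here one by one, though counts, medians and sums include them. Of several rows with 1 symbol, lists use the most abundant. Members and lists were chosen with earlier results of these data known. Summaries and adjustment were tested on simulated data. Homeoboxes were found as open frames around the conserved recognition helix, and promoters come from RefSeq (GRCm38.p6); coordinates of rows are those of the deposited table. Alternatives were another q, an unadjusted p, a 2-fold minimum, a minimum of 1 FPKM, Benjamini-Yekutieli adjustment, pseudocounts of 0.1 and 1 FPKM, re-centring, and leaving out joined or repeated rows. Scripts ran in Python 3.11.15 with matplotlib 3.10.9, SciPy 1.17.1, pandas 2.3.3 and numpy 2.4.6.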

Additional observations from a re-analysis of the deposited data

How the results depend on the processing

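The 7 Hox calls stayed within 1.5 times of that number under every alternative rule run except an unadjusted p under 0.05, which gave 12, with 7 higher and 5 lower in C2. At q under 0.01 and with Benjamini-Yekutieli adjustment 5 rows were called, 4 of them Hoxb rows, and without joined rows 6. The median log2 ratio of the tested Hox rows, 0.60, was 0.28 with a pseudocount of 1 FPKM and 0.33 without joined rows. With that pseudocount the medians were 1.69 for Hoxb and 0.33 for Hoxc. Re-centring moved the Hoxa median, and with it Hoxa7, from 0.05 to -0.0033, the only reversal among the 31 tested Hox rows under both pseudocounts and re-centring. Called members at q under 0.01 were 0 for Polycomb genes, endothelial markers and lymphocyte markers, and with a 2-fold minimum 1 for endothelial markers. Fewer rows can pass a stricter threshold by construction, and the cause of the other shifts was not tested. No paired analysis was possible because values per tumour were not analysed here. Without them, neither leaving out a tumour nor taking the mean of tagged replicates 2 and 3 could be run. The unknown depth limits what can be said of rows near 0.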

Other observations

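Other homeobox genes of the Hox and ParaHox type were low. Of 10 measured, 2 were tested and none was called by Cuffdiff (0, and 0 at an unadjusted p under 0.05). These were Meox1, a gene of the somites, at 2.24 FPKM in C2 and 3.51 FPKM in C1, and its sister Meox2, at 1.38 FPKM in C2 and 2.30 FPKM in C1. Evx1, which lies at the posterior end of Hoxa, was at 0.238 FPKM in C2 and 0.0612 FPKM in C1, and Evx2, at the posterior end of Hoxd, at 0.0304 FPKM in C2 and at 0 in C1. Among 4 proteins that bind Hox factors none was called by Cuffdiff (0, and 0 at an unadjusted p under 0.05), with a median log2 ratio of 0.15. With so few rows tested, the absence of calls in either list says little beside the 7.12% called among all tested rows. The most abundant of the 4, geminin (Gmnn), stood at 26.6 FPKM in C2 and 17.9 FPKM in C1.

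Between Hoxb13 and Hoxb9 lie 2 short unnamed rows whose values dwarf those of the Hox genes. XLOC_004782 (chromosome 11, 96110450 to 96110556) was at 10840 FPKM in C2 and 13514 FPKM in C1, and XLOC_004781 (chromosome 11, 96109868 to 96110092) at 1724 FPKM in C2 and 1294 FPKM in C1. Neither was called (q = 0.909 and q = 0.511 in the authors' deposited table).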
